A study of Mus musculus with 7 samples.

Results

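Imprinted growth genes were followed in muscle stem cells (MuSCs) as a group of 10 genes at 7 places in the mouse genome, *H19*, *Meg3*, *Rian*, *Dlk1*, *Peg3*, *Zim1*, *Grb10*, *Plagl1*, *Mest* and *Ndn*. They were chosen by symbol, and all 10 were found among the 56748 genes of the count files. The question was whether imprinted genes other than *Igf2* moved together between genotypes. RNA was read in 7 libraries, of which 3 were WT and 4 homozygous for *Jag2sm*. *Jag2* encodes a NOTCH ligand. The study describes *Jag2sm* as a naturally occurring missense allele carried in every cell and the homozygotes as hypomorphs, where the sample labels write *Jag2*-/-. Cells of both genotypes came from hind limb muscles of adult mice and were sorted with magnetic beads as Integrin α7+ cells without CD31, CD45 and Sca1. They were then cultured in a growth medium with FBS and bFGF on collagen. Nothing in the sample labels ties a library to an animal, so p-values measure the spread between these samples, which may be in part technical.

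In genomic imprinting a gene is read from the copy inherited from 1 parent only. *H19* is read from the maternal and *Igf2* from the paternal chromosome, and both use the same enhancers. In the Dlk1-Dio3 domain the noncoding RNAs *Meg3* and *Rian* are maternal and *Dlk1* is paternal. *Grb10* and *Zim1* are maternal in most tissues that use them, whereas *Peg3*, *Plagl1*, *Mest* and *Ndn* are paternal. Many of these genes are high in fetal tissue, act on growth and are switched down after birth, and *H19* stays high in muscle and its precursors. Gene counts do not separate the parental copies, so the values below are totals of both.

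Depth ranged from 187834 to 1937581 reads counted on genes, with WT replicate 1 lowest. On the scale used below, normalized counts (CPM, reads of a gene scaled to a common library size), 3 counts make 17.3 CPM in that library and 1.48 to 4.24 CPM in the other 6. Aligned reads outside genes made up 45.1% in WT replicate 1 and 20.8% to 25.7% elsewhere. Reads that did not align made up 46.0% to 50.8% in *Jag2sm* replicates 1, 2 and 4 and 2.44% to 3.24% in the others. *Jag2* itself stood at 80.7, 114 and 116 CPM in WT and at 42.4, 78.8, 71.9 and 77.4 in *Jag2sm* libraries, with an edgeR adjusted p of 0.166. The allele is missense, so its RNA level does not check the labels.

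All 10 genes passed the filter on low counts. None was called, that is, reached an adjusted p under 0.05 in edgeR's quasi-likelihood test, where 6.26% of the 9489 genes tested did. At an unadjusted p under 0.05 the count was 5 of 10, against 19.7% of all genes tested. DESeq2 called 2, *H19* and *Grb10*, both lower in *Jag2sm* (3.13% of its tested genes were called). That share is over all 25181 genes given a p-value, without the filter on low counts, so it is not comparable with 6.26%. Of the 10 log2 fold changes 8 were below 0, as were 46.0% of all, and their median was -0.86 beside a median of 0.05 over all genes tested. The sample labels also give a batch number, equal to the replicate number, that ties WT and *Jag2sm* replicates 1, 2 and 3. With that number as a block, 3 members were called, *H19*, *Meg3* and *Grb10*, all lower, at a background of 5.95%. *Jag2sm* replicate 4 is alone in its batch, so it adds nothing to the genotype effect in that fit. Results with the block and results without that library are therefore not independent. Within the 3 shared batches, 6 members were lower in *Jag2sm* each time, 2 were higher each time and 2 were mixed, where 21.1% of all genes tested were lower and 23.2% higher each time.

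**Figure D1:**
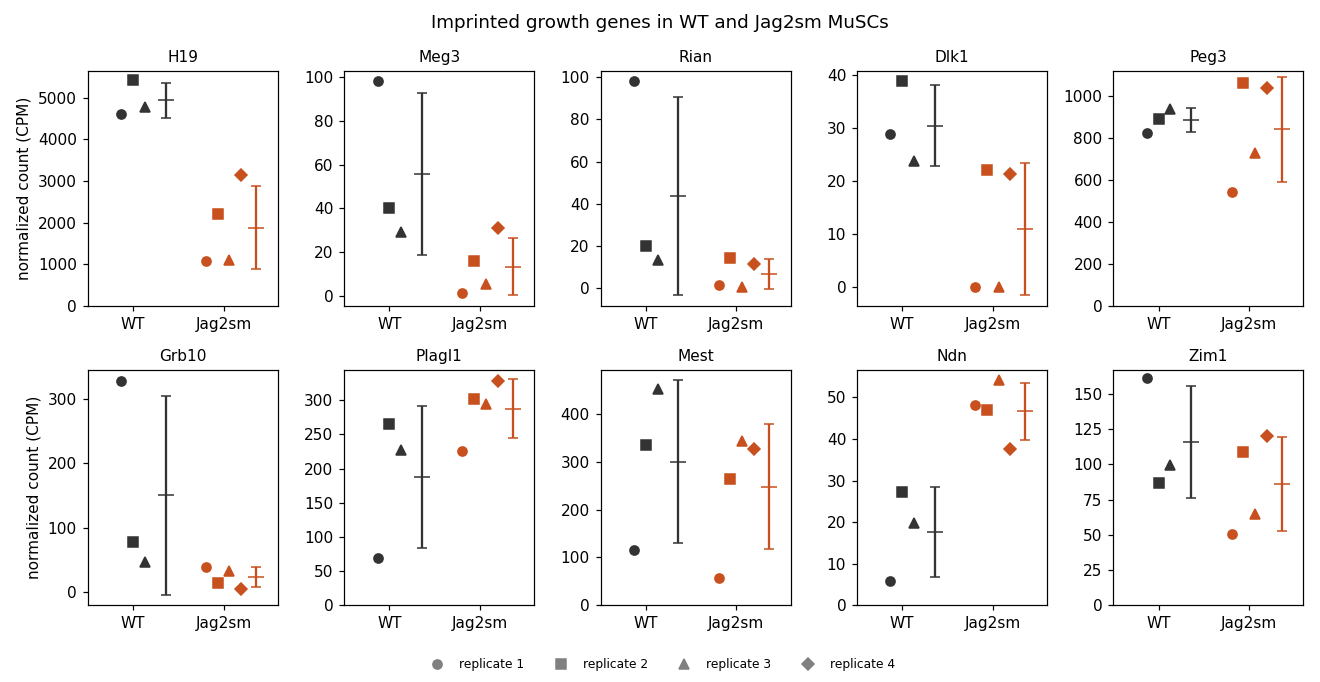
Normalized counts (CPM, linear axis, a scale of its own for each gene) of the 10 genes in each of the 3 WT and 4 Jag2sm libraries, with the mean and SD of each genotype beside the points. H19, Grb10 and Dlk1 lie lower and Ndn higher in every Jag2sm library than in any WT library; the other 6 genes overlap.

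*H19*, a noncoding RNA whose loss leads to overgrowth in mice, had the most counts of these genes, 14206 in WT and 10041 in *Jag2sm* libraries. The gene (ENSMUSG00000000031) lies at chr7:142129262-142133957 of GRCm39 on the minus strand. It stood at 4611, 5418 and 4765 CPM in WT replicates 1 to 3 and at 1093, 2203, 1099 and 3138 CPM in *Jag2sm* replicates 1 to 4. The genotypes did not overlap, and *Jag2sm* replicates 1 and 3 were the lowest. The mean was 4931 ± 428 CPM in WT (SD, n = 3) and 1883 ± 986 CPM in *Jag2sm* (SD, n = 4). The fitted log2 fold change was -1.39 (SE 0.392), a 2.62-fold lower level, with an adjusted p of 0.0654 by edgeR. A two-sided exact permutation test of log2 CPM over the 35 splits gave p = 0.0571, where 0.0286 is the smallest this design allows.

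Within batches 1, 2 and 3 the log2 difference of *H19* was -2.08, -1.30 and -2.11, and with the block its adjusted p was 0.0434. Without *Jag2sm* replicate 4, the highest of its genotype, the adjusted p was 0.0273. It lay between 0.0085 and 0.184 over 16 other settings, on the lower side of the threshold in 6 of them, and the log2 fold change lay between -1.83 and -1.19. In bulk RNA, fewer cells that make a transcript and less of it per cell cannot be told apart, which holds for every gene below.

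An exon of *H19* contains the hairpin of miR-675, which is cut from the *H19* transcript. Its mature arms are shown because they are the small RNAs that *H19* carries. The capitals mark the seed, bases 2 to 8, and the arms have different seeds. RefSeq gives them as follows.
miR-675-5p: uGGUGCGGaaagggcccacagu
miR-675-3p: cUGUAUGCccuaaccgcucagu
The *Mir675* gene shares 84 bases with *H19* on the same strand and held 0 counts in these libraries, which were made from cDNA and not from small RNA. How reads over both genes were counted is not given in the sources used here.

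The 3 genes of the Dlk1-Dio3 domain on chromosome 12 were low and varied widely within genotypes. *Meg3*, a noncoding RNA known as a growth suppressor and as a partner of chromatin repressors, stood at 98.0, 40.1 and 29.4 CPM in WT. Its levels were 1.41, 15.9, 5.42 and 31.0 CPM in *Jag2sm* replicates 1 to 4, so that replicate 4 lay inside the WT range and the other 3 below it. The log2 fold change was -1.74 (SE 0.659), with an adjusted p of 0.167 by edgeR and 0.0395 with the block. Without *Jag2sm* replicate 4 it was -2.46 with an adjusted p of 0.0463. The within-batch log2 differences were -5.00, -1.25 and -2.13. Counts were few, 110 over the WT and 73 over the *Jag2sm* libraries.

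*Rian*, a noncoding RNA that hosts a row of small nucleolar RNAs downstream of *Meg3*, stood at 98.0, 20.0 and 13.3 CPM in WT. In *Jag2sm* libraries it stood at 1.41, 14.5, 0.493 and 11.4 CPM, with replicates 1 and 3 resting on 1 count each. WT replicate 1, the shallowest library, held the highest value of both noncoding RNAs, 17 counts in each case. The log2 fold change of *Rian* was -2.06 (SE 0.898) with an adjusted p of 0.231 by edgeR, and -1.26 without WT replicate 1 or -2.78 without *Jag2sm* replicate 2. The within-batch log2 differences were -5.00, -0.42 and -2.77.

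*Dlk1*, a membrane protein with EGF repeats like those of the NOTCH ligands that holds back adipogenesis and is used in muscle growth and regeneration, lies at chr12:109418749-109429262 of GRCm39, before *Meg3*. It stood at 28.8, 38.8 and 23.7 CPM in WT. In *Jag2sm* replicates 2 and 4 it stood at 22.1 and 21.2 CPM. No read was counted in replicates 1 and 3, which allows up to 4.24 and 1.48 CPM by counting error alone. The genotypes did not overlap, but *Jag2sm* replicates 2 and 4 lay close under WT replicate 3. The log2 fold change was -1.48 (SE 0.877) with an adjusted p of 0.388 by edgeR, and p was 0.171 by the exact permutation test. Limma-voom put the log2 fold change at -3.60 and DESeq2 at -1.45 (adjusted p = 0.103 and 0.827), and the within-batch differences were -4.16, -0.77 and -3.89. The edgeR value was -2.13 without *Jag2sm* replicate 2 and -0.95 without *Jag2sm* replicate 3.

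Across the 3 genes of the domain, *Jag2sm* replicates 1 and 3 had the lowest values and replicates 2 and 4 lay nearer to WT. The gene order along the chromosome is *Dlk1*, *Meg3*, *Rian*, with 77.6 kb and 32.1 kb between them. *Meg3* lies at chr12:109506877-109538165 of GRCm39 and *Rian* at chr12:109570242-109628150, both on the plus strand. Their exons hold 4 and 15 annotated small RNA genes on the same strand, all at 0 counts, among them *Mir770* in *Meg3*. *Mirg*, the next noncoding RNA of the domain, was too low for the test, with 21 counts in WT and 13 in *Jag2sm* libraries. *Rtl1*, a paternal gene of the domain, had 8 counts in WT and 0 in *Jag2sm* libraries, where a count of 0 allows up to 0.554 CPM over the 4 libraries together.

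The *Meg3* promoter is shown since 3 genes of its domain had their lowest values in the same libraries. RefSeq on GRCm38.p6 gives this window of 250 bases before to 50 after the start at chr12:109540746-109541045 (plus strand). The capitals mark the TGCCGC hexamer that the imprinting factor ZFP57 reads, here on the other strand as GCGGCA.
Meg3 promoter: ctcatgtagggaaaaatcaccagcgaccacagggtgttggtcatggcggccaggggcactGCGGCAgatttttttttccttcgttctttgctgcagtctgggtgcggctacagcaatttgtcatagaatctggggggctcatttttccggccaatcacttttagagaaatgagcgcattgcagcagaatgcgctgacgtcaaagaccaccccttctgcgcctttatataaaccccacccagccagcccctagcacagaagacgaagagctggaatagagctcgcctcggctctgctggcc
It holds 13 CpG, where the median over all windows was 7. A second *Meg3* start, at chr12:109545148-109545447, holds 1 CpG and TGGGAA, the core of the site of the NOTCH effector RBPJ, in 2 places.

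*Grb10*, an adaptor that restrains insulin and IGF signaling and is best known for limiting fetal growth, had the largest edgeR fold change of the 10. It lies at chr11:11880498-11988683 of GRCm39 on the minus strand. It stood at 329, 76.9 and 46.5 CPM in WT and at 38.2, 14.5, 33.0 and 4.89 CPM in *Jag2sm* libraries. All 4 *Jag2sm* values lay below the lowest WT value, and the first WT value, from 57 counts in the shallowest library, lay far above the other 2. The log2 fold change was -2.48 (SE 0.711), a 5.58-fold lower level, with an adjusted p of 0.0681 by edgeR and an unadjusted exact permutation p of 0.0286. Without WT replicate 1 it was -1.50 with an adjusted p of 0.168. It was called by DESeq2 (adjusted p = 0.00629), with the block (0.0412) and without WT replicate 3 (0.0491). The within-batch log2 differences were -3.05, -2.28 and -0.47. *Jag2sm* replicates 1 and 3, the lowest for *H19* and the Dlk1-Dio3 genes, were the highest of their genotype for *Grb10*.

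The neighbours of *Grb10* on chromosome 11 passed the test and were lower in *Jag2sm*. *Ddc*, which makes dopamine and serotonin from their precursors, lies 32.3 kb away from *Grb10* and is imprinted in heart. It stood at 69.2, 43.3 and 55.0 CPM in WT and at 8.48, 13.8, 2.96 and 13.9 CPM in *Jag2sm* libraries, a log2 fold change of -2.46 (SE 0.430, adjusted p = 0.00948 by edgeR). *Cobl*, an actin nucleator, stood at 288, 122 and 137 CPM against 22.6, 23.5, 15.8 and 43.2 CPM, a log2 fold change of -2.70 (SE 0.384, adjusted p = 0.00483 by edgeR). Both were called under each of the other settings in which they could be tested.

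The *Grb10* window with the most CpG is shown because it stands apart in base composition, with 45 CpG and 80.0% G and C. RefSeq on GRCm38.p6 places it at chr11:12037371-12037670 on the minus strand, and the capitals again mark the TGCCGC hexamer read from the other strand.
Grb10 promoter: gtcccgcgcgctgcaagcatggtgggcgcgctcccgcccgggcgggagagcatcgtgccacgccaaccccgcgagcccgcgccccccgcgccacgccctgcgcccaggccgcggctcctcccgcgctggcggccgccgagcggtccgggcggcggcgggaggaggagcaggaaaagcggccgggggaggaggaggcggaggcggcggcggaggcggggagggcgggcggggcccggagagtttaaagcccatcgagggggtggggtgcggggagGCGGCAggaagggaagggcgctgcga

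*Ndn*, a protein of the MAGE family that holds cells out of the cycle and is used in MuSC survival and differentiation, was higher in *Jag2sm*. It lies at chr7:61995473-62000010 of GRCm39 on the plus strand. It stood at 5.76, 27.1 and 19.9 CPM in WT and at 48.1, 47.0, 54.2 and 37.5 CPM in *Jag2sm* libraries. Every *Jag2sm* value lay above every WT value, though the first WT value rests on 1 count. The mean was 17.6 ± 10.9 CPM in WT (SD, n = 3) and 46.7 ± 6.90 CPM in *Jag2sm* (SD, n = 4). The log2 fold change was 1.13 (SE 0.309), a 2.18-fold higher level, with an adjusted p of 0.0596 by edgeR and 0.0791 with the block. Within batches it was 2.74, 0.75 and 1.37 higher on the log2 scale. It was called with library size alone as the scaling (adjusted p = 0.0373) and without the filter on low counts (0.0128).

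Of 8 further genes of the *Ndn* domain 2 were tested, and neither was called. *Magel2*, its neighbour and fellow MAGE gene, had 0 counts in all 7 libraries. *Peg12* had a log2 fold change of 0.27 and *Ube3a* of -0.35, with adjusted p of 0.754 and 0.533 by edgeR. The *Ndn* window of RefSeq on GRCm38.p6, chr7:62348027-62348326 on the plus strand, is shown as that of the member with the largest fold change above 0. The capitals mark TGGGAA, read from the other strand as TTCCCA.
Ndn promoter: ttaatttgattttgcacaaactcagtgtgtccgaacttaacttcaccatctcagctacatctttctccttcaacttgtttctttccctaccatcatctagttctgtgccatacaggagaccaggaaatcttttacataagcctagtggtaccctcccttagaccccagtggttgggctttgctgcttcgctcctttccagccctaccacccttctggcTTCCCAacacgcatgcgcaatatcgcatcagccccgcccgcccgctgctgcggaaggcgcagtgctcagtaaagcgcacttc
This hexamer stood in 6 of the 13 windows found for 9 of the members and in 25.6% of all 32851 windows. TGCCGC stood in 6 of 13 and in 11.6% of all, and CAGCTG, an E-box of the kind that myogenic factors bind, in 1 of 13 (*Mest*) and in 16.3% of all. Both strands were searched, and none of the 3 hexamers contains another. A pair of the *Mest* windows, both with TGGGAA and TGCCGC, overlap almost wholly, so the counts over windows are not independent.

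*Plagl1* encodes a zinc finger factor that acts on other imprinted genes, *H19* and *Igf2* among them, from chr10:12936248-13007438 of GRCm39. It stood at 69.2, 265 and 228 CPM in WT and at 226, 301, 294 and 329 CPM in *Jag2sm* libraries. The low WT value came from replicate 1 with 12 counts, and *Jag2sm* replicate 1 lay under WT replicates 2 and 3. The log2 fold change was 0.54 (SE 0.345, adjusted p = 0.428 by edgeR), and 0.21 without WT replicate 1. Within batches the log2 difference was 1.69, 0.18 and 0.37.

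*Peg3* and *Zim1*, zinc finger genes 7.38 kb apart on the minus strand of chromosome 7 (chr7:6706882-6733468 and chr7:6674268-6699500 of GRCm39), showed no call under any setting. *Peg3*, which is known for its part in stress signaling and stem cells of muscle, stood at 824, 888 and 937 CPM in WT and at 542, 1059, 726 and 1035 CPM in *Jag2sm* libraries. Its log2 fold change was -0.07 (SE 0.279, adjusted p = 0.935 by edgeR) and turned to 0.08 with library size alone as the scaling. *Zim1* stood at 161, 86.6 and 99.6 CPM against 50.9, 108, 65.0 and 119.8 CPM, a log2 fold change of -0.32 (SE 0.330, adjusted p = 0.648 by edgeR). For both genes *Jag2sm* replicates 1 and 3 lay below every WT library and replicates 2 and 4 did not. Their neighbour *Usp29* had a log2 fold change of -0.68 and an adjusted p of 0.366.

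*Mest*, an enzyme of the hydrolase fold that is high in growing mesoderm and fat, lies at chr6:30723546-30752058 of GRCm39 on the plus strand. It stood at 115, 335 and 451 CPM in WT. Its levels in *Jag2sm* libraries were 58.0, 265, 342 and 326 CPM. In both genotypes replicate 1 was lowest, and the log2 differences within batches were -0.97, -0.34 and -0.40. The pooled log2 fold change was -0.32 (SE 0.531, adjusted p = 0.801 by edgeR). *Mest* shares 3850 exon bases with *Copg2* on the opposite strand, so without a stated strand setting their reads cannot be told apart, but *Copg2* had 191 counts in all libraries against 2533 for *Mest*.

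Reading down the libraries, *Jag2sm* replicate 1 had 8 of the 10 members below and 1 above every WT library, and replicate 3 had 7 below and 2 above. Of all genes tested, 28.9% were below and 30.8% above in replicate 1, and 26.5% and 30.6% in replicate 3. Replicates 2 and 4 each had 4 members below and 3 above, where 25.7% and 24.5% of all genes tested were below and 29.6% and 29.3% above. Non-overlap held for 3 members on the lower side (*H19*, *Dlk1* and *Grb10*) and for 1 on the higher side (*Ndn*). Over all genes tested, 12.2% were lower and 10.3% higher without overlap.

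**Figure D2:**
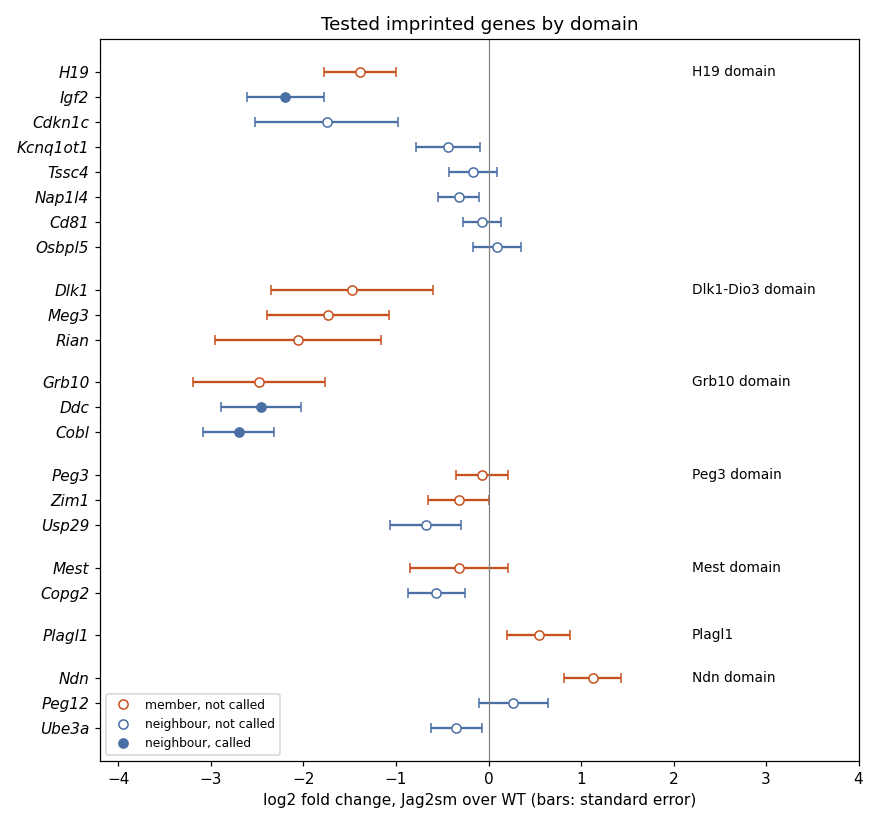
Fitted log2 fold change (Jag2sm over WT, bars of 1 standard error) of the 10 members and of the neighbours from the fixed list that passed the filter, grouped by imprinted domain. Filled points mark genes called at an adjusted p under 0.05; they are Igf2, Ddc and Cobl, and none of the 10 members.

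Neighbours and further imprinted genes came from a fixed list of 64 names, of which 62 had a row and 28 passed the filter on low counts. Of these 28, 5 were called, all lower in *Jag2sm*, where 4.84% of all genes tested were called lower. They are *Igf2*, *Ddc*, *Cobl*, *Igf2r* and *Gatm*. The median log2 fold change of the 28 was -0.34. *Igf2*, the fetal growth factor 70.5 kb from *H19*, stood at 375, 399 and 328 CPM in WT and at 66.5, 105, 26.1 and 124 CPM in *Jag2sm* libraries (log2 fold change -2.19, SE 0.417, adjusted p = 0.0128 by edgeR). *Igf2r*, the maternal receptor that clears IGF2, stood at 461, 348 and 285 CPM against 159.8, 131, 160.1 and 188 CPM. Its log2 fold change was -1.17 (SE 0.230, adjusted p = 0.0146 by edgeR). *Gatm*, the first enzyme of creatine synthesis, had a log2 fold change of -1.72 (SE 0.325, adjusted p = 0.0124 by edgeR). Neither call held without *Jag2sm* replicate 2 (adjusted p = 0.0677 and 0.0524), and *Igf2r* was also lost without WT replicate 2 (0.0538) and *Gatm* without WT replicate 3 (0.0643).

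The other tested genes on the *H19* side of chromosome 7 had smaller differences or varied more. *Cdkn1c*, the maternal cell cycle inhibitor p57, stood at 17.3, 79.5 and 165 CPM in WT and at 8.48, 25.6, 4.43 and 78.3 CPM in *Jag2sm* libraries. Its adjusted p was 0.236 by edgeR and 0.0413 with the block or 0.0354 without *Jag2sm* replicate 4. As for *H19*, *Jag2sm* replicates 1 and 3 were lowest and replicate 4 highest of their genotype. *Kcnq1ot1*, *Tssc4*, *Nap1l4*, *Cd81* and *Osbpl5* had log2 fold changes between -0.44 and 0.09, and none was called.

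Ratios within a library are largely free of its depth and scaling unless counts are few, and 5 pairs were compared. They are not per length, so a ratio is read only between libraries. The log2 ratio of *H19* to *Igf2* was 3.62, 3.76 and 3.85 in WT and 4.01, 4.37, 5.31 and 4.64 in *Jag2sm* libraries. The ranges did not overlap, and the *Jag2sm* ratio was higher by 0.84 (exact permutation p = 0.0571, Benjamini-Hochberg adjusted p = 0.143 over the 5 pairs). *Igf2* was lower relative to *H19* in each *Jag2sm* library than in any WT library, though the test over pairs was not passed. A lone pair at the smallest exact permutation p of this design (0.0286) reaches an adjusted p of only 0.143 over 5 pairs. The adjusted test could therefore hardly be passed, and nothing is concluded from it. *Plagl1* over *H19* was higher by 2.35 in *Jag2sm* libraries, without overlap, at the smallest p the exact test allows (0.0286) and an adjusted p of 0.143. Without WT replicate 1, where *Plagl1* had 12 counts, the difference was 1.79.

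The other 3 pairs, each inside a domain, overlapped between genotypes. *Meg3* over *Rian* differed by 0.12 (exact permutation p = 0.83) and *Meg3* over *Dlk1* by 0.07 (exact permutation p = 0.914). Both were below 0 with a prior count of 5 or without some single libraries, and with a prior count of 0.5 they were 0.35 and 0.79. In *Jag2sm* replicates 1 and 3 *Dlk1* had 0 counts and *Rian* 1 count each, so the prior count largely sets these ratios there. *Peg3* over *Zim1* differed by 0.33 (exact permutation p = 0.314), and by 0.02 without WT replicate 1. The log2 ratio of *Peg3* to *Zim1* lay between 3.09 and 3.45 in all *Jag2sm* libraries, and WT replicate 1, at 2.34, lay below the other 6 libraries.

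**Figure D3:**
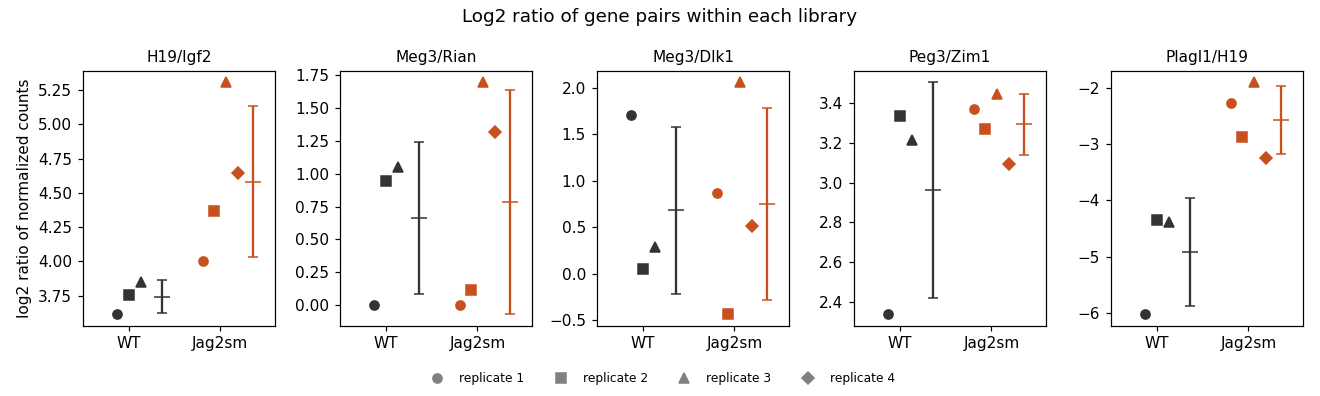
Log2 ratio of normalized counts (prior count 2) for 5 gene pairs within each of the 3 WT and 4 Jag2sm libraries, with the mean and SD of each genotype. H19/Igf2 and Plagl1/H19 are higher in every Jag2sm library than in any WT library, and the other 3 pairs overlap.

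The genes whose pattern over the 7 libraries was nearest to that of *H19*, by the root mean square difference of centred log2 CPM, were *Tmem119* (0.171), *Eno1* (0.219) and *Ptges3l* (0.246). Their log2 fold changes were -1.53, -1.48 and -1.46. Lower levels in *Jag2sm* follow from the choice by pattern.

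The cultures also differed in differentiation markers. Of 10 differentiating muscle markers 9 were tested and 8 called, all lower in *Jag2sm*. Their summed level was 24096 to 40437 CPM in WT and 789 to 6448 CPM in *Jag2sm* libraries, lowest in replicate 3 (789) and highest in replicate 4 (6448). *Mef2c* and *Myl1* had the largest log2 fold changes, -3.83 and -3.69. The 7 MuSC and myoblast markers summed to 3063 to 5609 CPM in WT and to 1848 to 2314 CPM in *Jag2sm* libraries. One of them was called, *Des*, lower with a log2 fold change of -1.63. *Des* was the largest part of that sum, at 1807 to 4600 CPM in WT and 706 to 1103 CPM in *Jag2sm* libraries. The lower sum thus mainly follows *Des*. *Pax7*, *Myf5* and *Vcam1* had log2 fold changes above 0 and *Myod1*, *Itga7* and *Cdh15* below 0. *Pax7*, which marks MuSCs, stood at 28.8 to 95.7 CPM in WT and at 100.4 to 172 CPM in *Jag2sm* libraries (adjusted p = 0.174 by edgeR). The part of differentiation in the values of the imprinted genes was not tested.

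Markers of other cells were summed by list. Summed CPM over 6 endothelial markers was 4.74 to 11.5 in WT and 7.88 to 17.0 in *Jag2sm* libraries. That over 6 fibro-adipogenic markers was 0 to 16.1 in WT and 7.39 to 44.9 in *Jag2sm* libraries. *Cd34* was its largest part, at 0 to 13.3 CPM in WT and 2.96 to 28.5 CPM in *Jag2sm* libraries. It was the only gene of that list to be tested and was not called (adjusted p = 0.624 by edgeR). *Ly6a* stood at 0 to 2.59 CPM in WT and 2.45 to 19.3 CPM in *Jag2sm* libraries. *Pdgfra* stood at 0 to 0.646 CPM in WT and 0.815 to 2.83 CPM in *Jag2sm* libraries. *Pi16* went the other way, at 0 to 1.29 CPM in WT and 0 to 0.493 CPM in *Jag2sm* libraries. Of 6 immune markers *Ptprc*, *Adgre1*, *Lyz2* and *Tyrobp* were at 0 in every library, and the sum reached 4.08 CPM. The sum over 4 glial markers reached 5.66 CPM. Mural markers summed to 46.1 to 62.1 CPM in WT and to 67.5 to 687 CPM in *Jag2sm* libraries. *Rgs5* alone stood at 645 CPM in replicate 1. Only *Rgs5* and *Notch3* carried the higher sum, and the study reports *Notch3* in MuSCs as well. Mean *Cspg4* was lower in *Jag2sm*, 3.45 against 15.9 CPM, as was mean *Pdgfrb*, 0.961 against 3.00 CPM. *Kcnj8* had 2 counts over all libraries. The tenocyte marker *Scx* was called lower. The 3 tenocyte markers summed to 115 to 121 CPM in WT and 29.6 to 75.8 CPM in *Jag2sm* libraries. *Scx* made up nearly all of that sum, with 566 counts over all libraries against 2 for *Tnmd* and 8 for *Mkx*. *Mkx* went the other way, at 0 in WT and 0.493 to 4.24 CPM in *Jag2sm* libraries. Without *Jag2sm* replicate 1, *H19* had a log2 fold change of -1.19 (adjusted p = 0.136 by edgeR) and *Ndn* of 1.11 (adjusted p = 0.0957 by edgeR). The part of other cells in the values of the imprinted genes was not tested.

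Each of the 16 other settings was read for the members alone. Without the filter on low counts 6 were called (*H19*, *Meg3*, *Rian*, *Dlk1*, *Grb10* and *Ndn*), where 4.95% of the genes tested were. That share is over all 25189 genes with any read, so it is not comparable with 6.26%. Adjusted p moved far more than fold change there. *Rian* had a log2 fold change of -2.02 without the filter and -2.06 with it, at edgeR adjusted p of 0.0001 and 0.231. Why was not tested. *H19* was called by limma-voom (background 6.45%) and in counts thinned to the smallest library (7.08%), where 5 members passed the filter, and *Ndn* with library size alone (6.59%). Leaving out WT replicate 3 gave a call of *Grb10* (3.40%), and leaving out *Jag2sm* replicate 4 gave calls of *H19* and *Meg3* (5.90%). None was called with the size factors of DESeq2 in edgeR (6.08%), at least 10 counts in every library (9.19%) or the robust fit (6.0%). The same held without WT replicate 1 (5.80%) or 2 (3.49%) and without *Jag2sm* replicate 1 (4.57%), 2 (2.74%) or 3 (6.68%). The 5 members called lower in these settings, *H19*, *Meg3*, *Rian*, *Dlk1* and *Grb10*, had log2 fold changes below 0 in every setting in which they passed the filter, and those of *Ndn* and *Plagl1* were above 0.

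**Figure D4:**
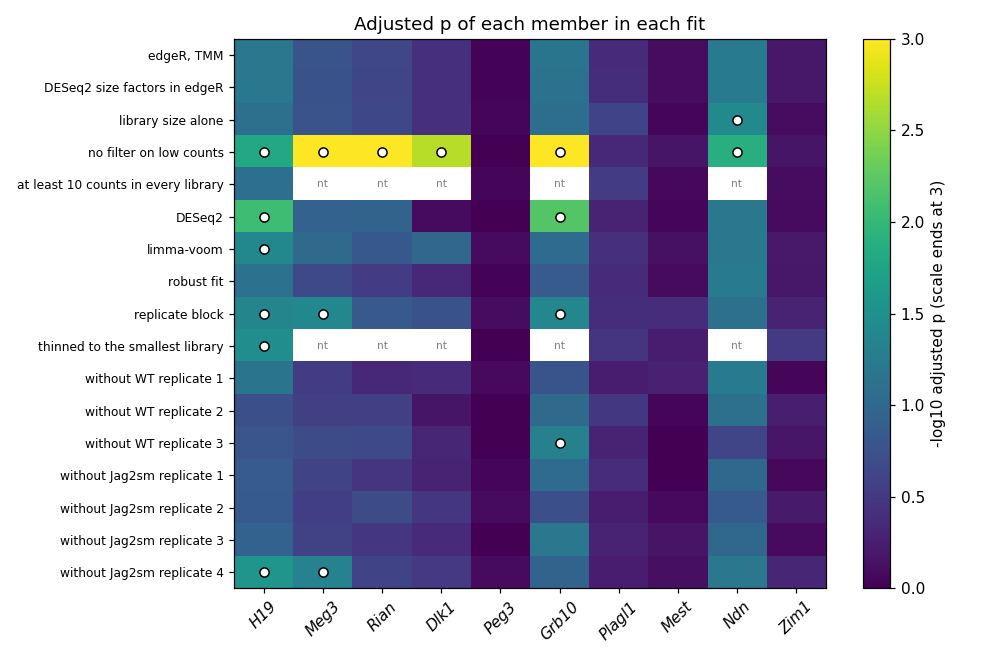
Adjusted p of each of the 10 genes in the reported fit and 16 other settings, as -log10 on a colour scale that ends at 3; circles mark an adjusted p under 0.05 and nt marks a gene that did not pass that setting's filter. H19 is called in 6 of the other settings, Grb10 in 4, Meg3 in 3, Ndn in 2, Rian and Dlk1 in 1 each, and Peg3, Plagl1, Mest and Zim1 in none.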

How the data were processed

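RNA of cultured MuSCs from 3 WT and 4 homozygous *Jag2sm* samples was reverse-transcribed and sequenced as direct cDNA on an Oxford Nanopore platform. The authors used minimap2 2.17 for alignment to GRCm39 and HTSeq for counting, and they deposited raw counts for each library, without normalization. The HTSeq version, its mode and strand setting, and the annotation release are not given in the sources used here. Summary rows that name no gene were left out of library sizes, and ambiguous reads made up 8.05% to 9.74% of aligned reads. The authors' table of DESeq2 results holds fold changes and p-values of their own comparison and was not used.

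The fits used edgeR 4.0.16 under R 4.3.3, with filterByExpr at its minimum count of 10 and total of 15, TMM scaling, glmQLFit and glmQLFTest and no covariate. The threshold was 0.05 on the Benjamini-Hochberg adjusted p over all 9489 genes tested. CPM is relative to the TMM-scaled reads on tested genes, with a prior count of 2 on the log2 scale. Within-batch differences, ratios and permutation tests used log2 CPM, and the permutation tests were exact and two-sided. The fitting steps were tested on simulated data. The labels pair WT and *Jag2sm* replicates 1, 2 and 3 by a shared batch number, whose nature they do not state. Deviations from the genotype means correlated at 0.0740, 0.0144 and 0.0539 within these pairs across tested genes. Between WT and *Jag2sm* libraries of different batch numbers the correlations ran from -0.0944 to 0.0644. The study names no covariate, so the block was an alternative. *Jag2sm* replicate 4 has no WT library in its batch and does not enter the genotype effect under the block.

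Of the identifiers, 56017 were found in GENCODE M39, which gave positions and overlaps. Promoter and miRNA sequences come from RefSeq tables on GRCm38.p6. The sequence table had promoters for 9 of the members. Named genes are the 10 members, *Igf2*, *Jag2*, and the called genes and tested domain neighbours of a fixed imprinted list. They also include the 3 genes nearest to *H19* in pattern and up to 3 markers per list by level. *Mef2c*, the MuSC and myoblast markers, *Pdgfrb*, *Kcnj8*, *Pi16*, *Mirg*, *Rtl1*, *Magel2* and the markers at 0 were added after their values were seen. The members and lists were chosen with earlier results of these data known. Other settings were DESeq2 1.42.0, limma-voom (limma 3.58.1), other scalings and filters, a robust fit, the replicate block, thinned counts, other prior counts and each library left out in turn.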

Additional observations from a re-analysis of the deposited data

How the results depend on the processing

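The 6.26% of genes called (594) became 1248 without the filter on low counts, 274 with at least 10 counts in every library, 261 with counts thinned to the smallest library, and 251 to 616 with single libraries left out. Members called numbered 0, and 1 (*Ndn*) with library size alone, 6 without the filter, 2 with DESeq2, 1 (*H19*) with limma-voom, 3 with the replicate block, 1 (*H19*) in thinned counts and 0 to 2 with single libraries left out. The block also added *Cdkn1c* to the other imprinted genes and changed no further call among the named imprinted genes. Other imprinted genes called numbered 11 without the filter and 3 to 7 with single libraries left out. *Igf2r* lost its call without WT replicate 2 (adjusted p = 0.0538) and *Gatm* without WT replicate 3 (0.0643), and both without *Jag2sm* replicate 2.

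The members' median of -0.86 was -0.15 with at least 10 counts in every library, which left 5 of the members, and -1.13 to -0.67 with single libraries left out. That of the other imprinted genes was -0.17 with library size alone, -0.13 without the filter, -0.83 in thinned counts and -0.49 to -0.21 with single libraries left out. Log2 fold changes near 0 changed sign. *Peg3* reached 0.0819 with library size alone and 0.0839 with at least 10 counts in every library, and ranged from -0.198 to 0.0940 with single libraries left out. *Cd81* reached 0.0889, 0.0825 and, in thinned counts, 0.0209, and ranged from -0.127 to 0.0292. *Mest* ranged from -0.657 to 0.0589, *Peg12* from -0.0292 to 0.445 and *Osbpl5* from -0.0514 to 0.192 with single libraries left out. The difference in *Meg3* over *Rian* was -0.0288 with a prior count of 5, 0.348 with one of 0.5, -0.0611 as the mean over pairs of the replicate block and -0.22 to 0.38 with single libraries left out. That in *Meg3* over *Dlk1* was -0.23 with a prior count of 5, 0.787 with one of 0.5 and -0.37 to 0.58 with single libraries left out. The causes were not tested. Library size alone moved the median over all genes to 0.21. Depth limits the low genes most, since 1 count in WT replicate 1 makes 5.76 CPM, the level of *Ndn* there.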

Other observations

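Of 30 imprinted genes outside the domains of the members, 15 were tested. *Igf2r* and *Gatm* were called, and the following were picked after their values were seen. *Blcap*, a small membrane protein whose imprinting is limited to brain, stood at 5.76, 19.4 and 14.2 CPM in WT and at 29.7, 38.7, 30.6 and 32.6 CPM in *Jag2sm* libraries, with a log2 fold change of 1.07 (SE 0.295, adjusted p = 0.0604 by edgeR). It was called with library size alone and without the filter on low counts. *Peg10*, a gene of retrotransposon origin needed in placenta, stood at 51.9, 125 and 174 CPM in WT and at 42.4, 73.2, 55.7 and 74.2 CPM in *Jag2sm* libraries (log2 fold change -1.03, SE 0.319, adjusted p = 0.0898 by edgeR). *Zdbf2*, a paternal gene that acts on growth, did not pass the filter, with 24, 23 and 6 counts in WT and 3, 8, 2 and 4 in *Jag2sm* libraries. In WT replicate 1 these 24 counts make 138 CPM, so that this library held the highest level of *Zdbf2* as it did of *Meg3*, *Rian*, *Grb10* and *Zim1*.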
